A study of Mus musculus with 10 samples.

Results

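The respiratory chain genes described here are the nuclear genes whose symbols begin with Nduf, Uqcr, Atp5 or Cox4 to Cox8, together with Sdha, Sdhb, Sdhc and Sdhd, and this rule on symbols took 92 of the 24411 genes in the count files. Of these, 36 are complex I subunits, 7 of them catalytic core subunits and 29 accessory subunits. A further 7 are complex I assembly factors of the Ndufaf series, 4 belong to complex II, 8 to complex III, 20 to complex IV and 15 to complex V. Atp5s and Atp5sl carry the prefix of complex V without being subunits of the enzyme. Ndufa4 and Ndufa4l2 were placed with complex IV, where the protein of Ndufa4 is now counted, and Cox7a2l, which joins complexes III and IV into supercomplexes, was also kept there. The genes lie on 19 chromosomes, and 0 mitochondrial gene symbols were in the files, so the subunits encoded by mitochondrial DNA were not analysed here.

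Complexes I and II pass electrons from NADH and succinate to coenzyme Q, complex III hands them to cytochrome c, and complex IV reduces oxygen. The proton gradient built by complexes I, III and IV drives ATP synthase, complex V. Macrophages and microglia activated through Toll-like receptor 4 are known to lean more on glycolysis, and their respiratory chain then serves signalling as well as ATP supply. Promoters of nuclear respiratory chain genes often carry binding elements of NRF1, of the ETS protein GABP (NRF2) and of YY1.

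All 10 RNA-seq libraries came from mouse cells treated for 4 h with 10 uM EPZ-6438, which inhibits the histone methyltransferase EZH2. Primary microglia were shaken off mixed glial cultures grown from brains of 3-day-old ICR mice, 12 animals being pooled, and were over 92% positive for CD11b by flow cytometry, per the labels. BV2 is an immortalised mouse microglial line. Primary microglia were sequenced with the inhibitor alone (n = 3) or with lipopolysaccharide (LPS) at 10 ng/ml as well (n = 3), and so were BV2 cells with the inhibitor alone (n = 2) or with LPS as well (n = 2). Cells without EPZ-6438 were not analysed here, and no value below measures what EPZ-6438 does. The labels do not tie replicates to separate cultures, and p-values therefore cover just the spread among these samples, possibly a technical one.

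Libraries held 2.75 to 3.68 M gene counts (M, 1000000), of which the 92 genes took 0.252% to 0.966%. The ribosomal RNA precursor Rn45s took 40.9% to 51.7% of them in primary microglia without LPS. With LPS it took 43.7% in primary library 1 but 15.7% and 16.0% in libraries 2 and 3, and in BV2 cells 27.0% to 30.1%. All 15 microglia markers had reads in each group. Their summed level was 2999 to 3508 CPM (counts per 1000000 on TMM-scaled library sizes) in primary microglia without LPS, 3303 to 3857 with LPS, 2394 to 2530 in BV2 cells and 2425 to 2504 in BV2 cells with LPS. Primary libraries also held astrocyte markers, 915 to 1517 CPM summed over 12 genes without LPS and 914 to 1601 with LPS, against 38.0 to 43.0 CPM in BV2 cells. Fibroblast markers (7 genes) summed to 341 to 688 CPM in primary cells without LPS and 226 to 525 with LPS, and all 7 were at 0 in BV2 cells. In bulk RNA, fewer cells of a type and less RNA per cell cannot be told apart, and the part of other cell types in the results was not tested.

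Of the 92 genes, 80 had enough counts to be tested in every comparison, 2 (Ndufa2 and Ndufaf6) in some, and 10 in none. Ndufs5, Cox7b2, Cox8b and Cox8c were at 0 in every library. Of the Ndufs5 transcript, 41.2% of 50-base windows occur in another gene's transcript as well. Uqcrb, with 43.2% of windows shared, had 159 to 407 counts a group, and why Ndufs5 was at 0 was not tested. The muscle, lung, testis and hypoxia isoforms of complex IV had few reads: over all libraries Cox4i2 had 7 counts, Cox6a2 31, Cox6b2 25, Cox7a1 40 and Ndufa4l2 2. All 25 counts of Cox6b2, the testis isoform, came from primary cells. Read sharing also touched other genes, since over 50% of windows were shared for Atp5g2 (87.4%), Atp5l (68.5%), Atp5g1 (56.2%), Cox7c (53.0%) and Atp5h (50.5%), and their counts are uncertain.

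The promoters are shown first because their shared elements are what these genes are known for. RefSeq windows of 300 bases (250 before and 50 after the transcription start, GRCm38.p6) were found for 76 of the 92 genes, 82 windows in all. The letters CGCNTGCGC (NRF1) on either strand were in 28.0% of these windows against 6.25% of all 32851 promoter windows. CCGGAAG (ETS) was in 20.7% against 8.86%, and AAGATGGC (YY1) in 14.6% against 2.75%. CCAAT was in 42.7% against 37.4% and TATAAA in 9.76% against 13.6%. Matches can overlap, and a match describes the sequence only. Windows of 4 genes that rose with LPS in primary microglia are printed below, chosen after their values were seen because they hold such letters, with NRF1, ETS and YY1 letters in capitals.
Uqcrc1, chr9:108936398-108936697, plus strand: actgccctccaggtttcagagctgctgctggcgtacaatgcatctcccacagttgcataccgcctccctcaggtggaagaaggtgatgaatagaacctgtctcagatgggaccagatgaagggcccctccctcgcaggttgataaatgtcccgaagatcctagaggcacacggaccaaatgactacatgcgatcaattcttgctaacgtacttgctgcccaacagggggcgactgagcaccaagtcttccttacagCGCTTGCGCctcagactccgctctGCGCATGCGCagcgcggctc
Cox6a1, chr5:115348909-115349208, minus strand: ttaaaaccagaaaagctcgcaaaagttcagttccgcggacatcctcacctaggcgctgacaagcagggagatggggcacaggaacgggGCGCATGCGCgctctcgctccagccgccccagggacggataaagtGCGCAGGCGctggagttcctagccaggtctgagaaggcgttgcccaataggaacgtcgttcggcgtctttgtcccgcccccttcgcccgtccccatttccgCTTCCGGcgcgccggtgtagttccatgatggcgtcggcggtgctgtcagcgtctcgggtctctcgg
Atp5g3, chr2:73911277-73911576, minus strand: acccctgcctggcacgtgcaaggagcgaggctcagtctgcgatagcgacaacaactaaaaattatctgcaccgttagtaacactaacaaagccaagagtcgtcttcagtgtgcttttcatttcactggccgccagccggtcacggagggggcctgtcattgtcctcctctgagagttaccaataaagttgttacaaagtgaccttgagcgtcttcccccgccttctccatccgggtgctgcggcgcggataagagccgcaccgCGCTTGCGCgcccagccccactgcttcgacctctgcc
Atp5f1, chr3:105959214-105959513, minus strand: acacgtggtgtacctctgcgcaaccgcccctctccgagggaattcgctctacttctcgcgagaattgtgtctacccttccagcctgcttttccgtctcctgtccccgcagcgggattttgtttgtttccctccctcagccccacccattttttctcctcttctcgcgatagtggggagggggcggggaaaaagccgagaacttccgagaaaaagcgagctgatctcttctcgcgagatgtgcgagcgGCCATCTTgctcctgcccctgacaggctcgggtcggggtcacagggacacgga
Uqcrc1, a core subunit of complex III, has an NRF1 match starting at base 7 of the transcript and a palindromic one, read on both strands, starting at base 31. Cox6a1 has a palindromic NRF1 match starting 162 bases before the start, another match 117 bases before it and an ETS match 16 bases before it. In Atp5g3, which encodes the c ring of ATP synthase, the NRF1 match starts at base 14, and in Atp5f1, a subunit of the peripheral stalk, the YY1 match starts 3 bases before the transcription start. Such letters were not limited to genes that rose: an NRF1, ETS or YY1 match was found for 9 of 17 genes with a window that rose with LPS in primary microglia and for 31 of 52 that were not called.

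Under the inhibitor, the genes that rose with LPS in primary microglia in the main test were mostly subunits of complexes III, IV and V. Each rose by less than 2-fold, no complex I core subunit was called, and most of these calls were lost when transcript length was accounted for. The call required an adjusted p under 0.05 in edgeR's quasi-likelihood test with Benjamini-Hochberg adjustment over all genes, as for every adjusted p given here. Of 80 genes tested, 22 rose and 1 fell. Over all 10664 genes tested, 21.4% rose and 17.8% fell, so the share of respiratory chain genes that rose (27.5%) was near the background, and the share that fell (1.25%) was under it. The median log2 fold change was 0.22, against -0.03 over all genes, and none of the 22 rises reached 2-fold, as those of 10.3% of all genes did. The groups with and without LPS did not overlap for 35 of the 80 genes, against 49% of all genes. Per complex, 5 of 8 complex III genes, 8 of 12 complex IV genes and 5 of 15 complex V genes rose. Complex II had 1 of 4, complex I accessory subunits 2 of 27, Ndufaf genes 1 of 6 and complex I core subunits 0 of 7. Differences between the complexes were not tested. With each library's transcript length trend entered as an offset (below), 6 of the 80 genes rose and 8 fell, with a median of -0.03. Those that rose were then 2 of 8 in complex III, 1 of 12 in complex IV, 2 of 15 in complex V and 1 of 4 in complex II.

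**Figure D1:**
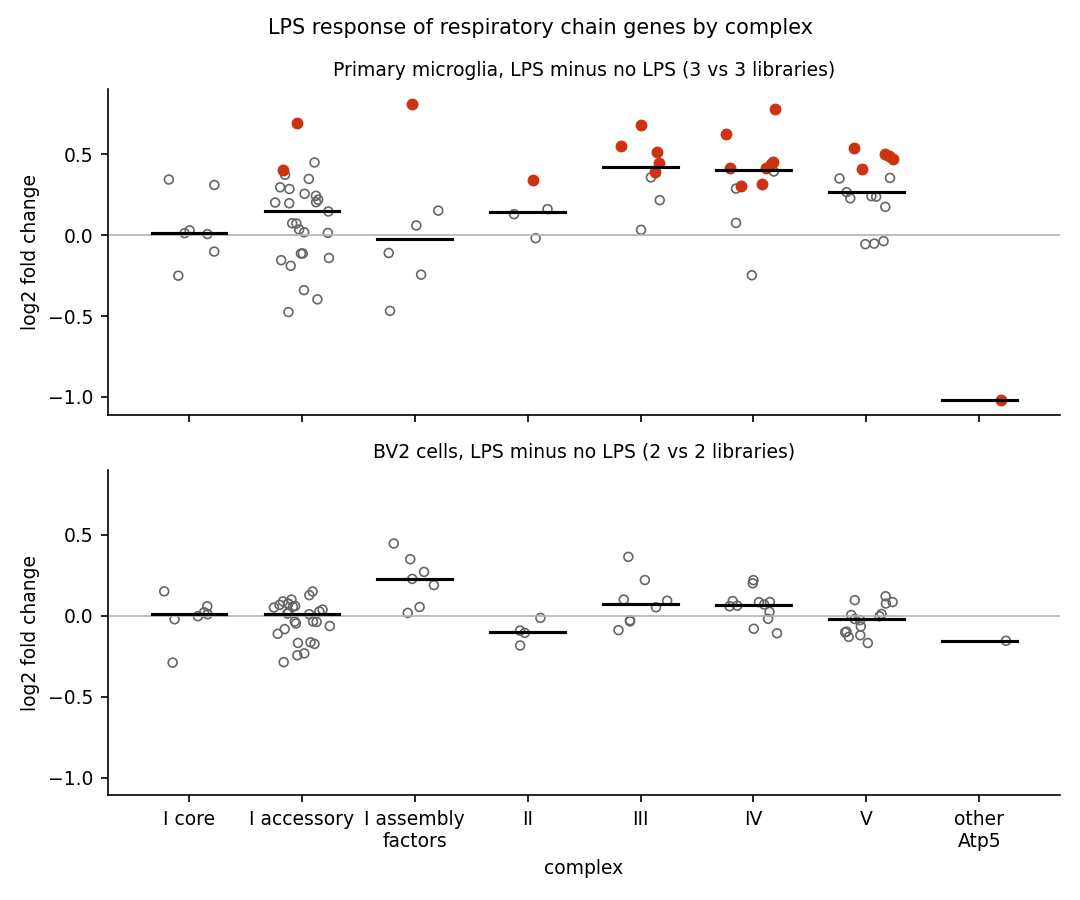
Log2 fold change with LPS of each tested gene by complex, in primary microglia (upper panel) and BV2 cells (lower panel); filled points were called, open points were not, and lines are medians. Complexes III, IV and V sit above 0 in primary microglia, with medians of 0.42, 0.40 and 0.27, and no gene is called in BV2 cells.

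Few complex I genes were called. The 7 core subunits, which hold the flavin, the iron-sulfur clusters and the NADH site, had a median log2 fold change of 0.01. Ndufs1, the largest of them, was at 46.1, 51.9 and 41.9 CPM without LPS and at 41.1, 47.2 and 54.7 CPM with LPS, so the groups overlapped. Among accessory subunits, Ndufa1 rose by 0.69 ± 0.19 on the log2 scale (SE, adjusted p = 0.00749), from 14.8 ± 1.53 to 24.1 ± 1.92 CPM (SD, n = 3 each), and Ndufb9 rose by 0.40 ± 0.15 (adjusted p = 0.0457). Ndufaf5, which hydroxylates a core subunit during assembly, was at 4.12, 4.50 and 5.63 CPM without LPS and at 8.62, 8.93 and 7.94 CPM with LPS. The groups did not overlap at these low levels, and the log2 fold change was 0.81 ± 0.29 (adjusted p = 0.0321). Ndufaf5 lost the call in 7 of 16 alternative analyses.

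In complex II, which also works in the TCA cycle, the membrane anchor Sdhc was the gene called. Sdhc was at 61.8, 58.9 and 67.2 CPM without LPS and at 69.7, 89.9 and 80.5 CPM with LPS, a log2 fold change of 0.34 ± 0.13 (adjusted p = 0.0468). It lost the call in 8 of 16 alternative analyses. Sdha, the flavoprotein that oxidises succinate, had means of 107.9 ± 4.46 and 107.3 ± 2.21 CPM (SD, n = 3 each) without and with LPS, a log2 fold change of -0.02 ± 0.11. Sdhb and Sdhd were not called either (0.16 ± 0.15 and 0.13 ± 0.14).

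In complex III, Uqcrb, Uqcrc1, Uqcrc2, Uqcrfs1 and Uqcrq rose, by 0.39 to 0.68 on the log2 scale. Uqcrc2, a core subunit, was at 66.7, 60.9 and 72.5 CPM without LPS and at 88.5, 101.1 and 106.3 CPM with LPS. Each library with LPS was above each without, and the log2 fold change was 0.55 ± 0.13 (adjusted p = 0.00179). Uqcrb, which contributes to the coenzyme Q site, went from 27.1 ± 1.69 to 43.6 ± 7.58 CPM (SD, n = 3 each), a log2 fold change of 0.68 ± 0.16 (adjusted p = 0.00269). Of its transcript windows, 43.2% occur in another gene as well, so its count is less certain. Uqcrfs1, the Rieske iron-sulfur protein, rose by 0.45 ± 0.15 (adjusted p = 0.026), and Uqcrh, Uqcr10 and Uqcr11 were not called.

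Complex IV gave the clearest single gene. Cox7a2, the isoform of subunit 7a used outside heart and muscle, was at 33.3, 33.5 and 42.6 CPM without LPS and at 63.9, 68.6 and 57.6 CPM with LPS. The groups lay well apart, and the log2 fold change was 0.78 ± 0.15 (adjusted p = 2.88e-04). Its relative Cox7a2l had a log2 fold change of -0.25 ± 0.15 and was not called (adjusted p = 0.192). Cox7c was at 39.0, 36.4 and 36.6 CPM without LPS and at 56.0, 59.3 and 58.4 CPM with LPS, and rose by 0.62 ± 0.13 (adjusted p = 0.00102). Cox5a, Cox6a1, Cox6b1, Cox7b, Cox8a and Ndufa4 also rose, by 0.31 to 0.45. Of 16 alternative analyses, Cox7b lost the call in 10, Cox6a1 in 8, Ndufa4 in 5 and Cox6b1 in 2. Cox8a lost it in 7 and changed sign in 1 more. Cox4i1, the ubiquitous isoform of the subunit on which assembly of the enzyme begins, had means of 50.6 ± 2.80 and 53.8 ± 2.51 CPM (SD, n = 3 each) without and with LPS (0.08 ± 0.13) and was not called.

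In complex V, Atp5b, the catalytic beta subunit and the most abundant of the 92 transcripts by CPM in primary microglia without LPS, was at 315.1, 292.3 and 324.1 CPM without LPS. With LPS it was at 412.5, 486.7 and 462.4 CPM. The groups did not overlap, and the log2 fold change was 0.54 ± 0.11 (adjusted p = 5.73e-04). Atp5f1, Atp5g3, Atp5h and Atp5o rose by 0.41 to 0.50. The c ring is encoded by Atp5g1, Atp5g2 and Atp5g3, whose mature proteins are alike. Of these, Atp5g3 rose by 0.49 ± 0.12 (adjusted p = 0.00417), while Atp5g1 (0.27 ± 0.16) and Atp5g2 (-0.06 ± 0.16) were not called.

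The single gene that fell was Atp5sl, whose product is known as an assembly factor for the distal membrane arm of complex I and not as a part of ATP synthase. It was at 15.4, 12.7 and 14.8 CPM without LPS and at 4.31, 8.93 and 7.65 CPM with LPS. All libraries with LPS were below those without, and it fell by 1.02 ± 0.27 on the log2 scale (adjusted p = 0.00495). Across 16 alternative analyses of this comparison, Atp5b, Cox7a2 and Uqcrc2 stayed called higher and Atp5sl called lower in each.

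**Figure D2:**
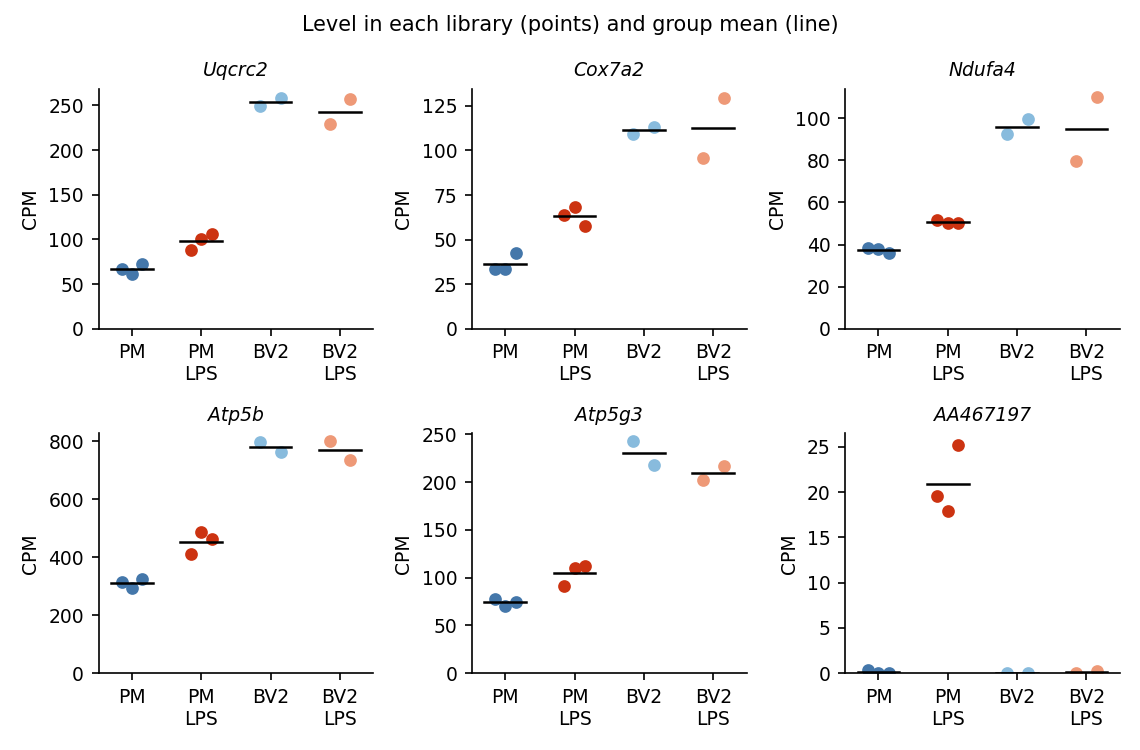
CPM in each library (points) and group means (lines) of Uqcrc2, Cox7a2, Ndufa4, Atp5b, Atp5g3 and AA467197 in primary microglia (PM) and BV2 cells with and without LPS. With LPS the primary libraries lie above those without for all 6 genes, and AA467197 is near 0 in the other 3 groups.

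Transcript length slope, Rn45s share and respiratory chain level differed together among the primary libraries. The median respiratory chain transcript was 823.5 bases long, against 2981 for genes with at least 100 counts in all. The slope of log2 CPM on log2 transcript length over all tested genes was 0.31 to 0.39 in the primary libraries without LPS. It was 0.32 in primary library 1 with LPS, but 0.11 and 0.14 in libraries 2 and 3, the same libraries that held the lower Rn45s shares. Summed over the 92 genes, the level was 3264, 3231 and 3512 CPM without LPS and 3633, 4338 and 4210 CPM with LPS. Library 1 with LPS was thus the nearest to the primary libraries without LPS in length slope, in Rn45s share and in respiratory chain level. With each library's length trend entered as an offset, 6 genes rose and 8 fell, the median became -0.03, and Cox8a took the opposite sign. Over all genes 40.5% were called with the offset, 17.6% as lower, and the median was -0.02. Per complex, 1 gene of complex II, 2 of complex III, 1 of complex IV and 2 of complex V then rose. The 8 that fell were 4 complex I accessory genes, 1 complex I core gene (Ndufs8), Cox7a2l of complex IV, Atp5d of complex V and Atp5sl. With only library 1 kept in the LPS group, the median log2 fold change was 0.07, against -0.03 over all genes. It was 0.22 in complex III, 0.24 in complex IV and 0.22 in complex V. In complex I it was -0.16 for core subunits, 0.004 for accessory subunits and -0.17 for Ndufaf genes, and in complex II 0.0006. Without library 1 with LPS 34 genes rose, without library 2 with LPS 13 rose and 3 fell, and without primary library 1 or 2 that received no LPS 12 rose. Of all genes, 48.3%, 33.6%, 30.4% and 30.6% were called in these fits, in that order, against 39.2% in the main test. Atp5b, Cox7a2 and Uqcrc2 were the 3 genes called higher in the main test, with the offset and with library 1 alone. With the offset, genes shorter than the median respiratory chain transcript had a median log2 fold change of -0.08 and longer ones -0.00238. The part of transcript length and Rn45s share in the rises was not tested further.

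**Figure D3:**
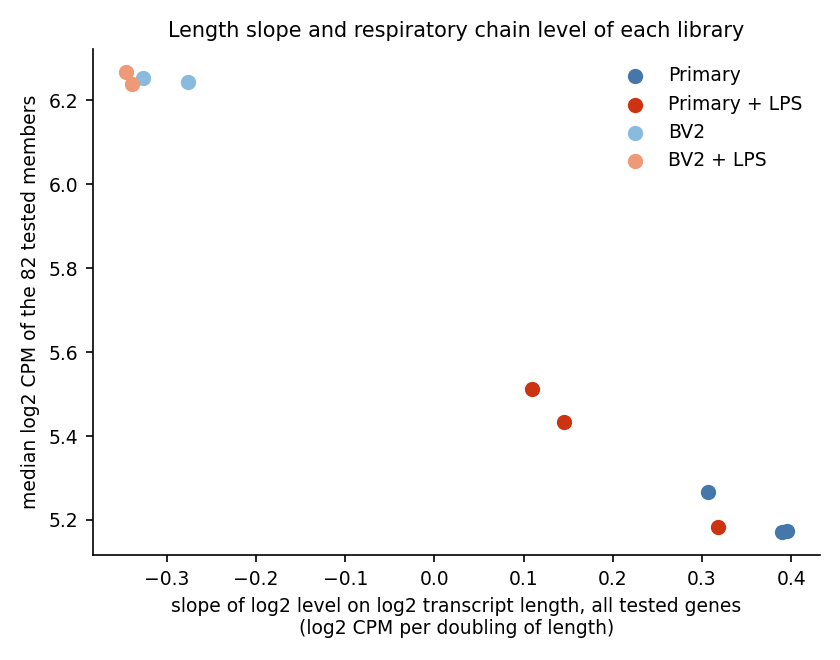
Median log2 CPM of the 82 tested genes in each library against that library's slope of log2 CPM on log2 transcript length over all tested genes. BV2 libraries lie at negative slopes and high levels, and primary library 1 with LPS lies beside the primary libraries without LPS, apart from the other 2 libraries with LPS.

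In BV2 cells no response of these genes to LPS was detected with 2 libraries a group. Of 82 genes tested with edgeR, 0 were called, where 5.20% of all 9321 genes were called. At an unadjusted p under 0.05 the number was also 0, DESeq2 called 0, and the smallest adjusted p in edgeR was 0.446. The median log2 fold change was 0.02. Atp5b was at 797.2 and 764.4 CPM without LPS and at 802.3 and 735.6 CPM with LPS, and Uqcrc2 at 249.5 and 258.4 against 229.3 and 256.9 CPM. Cox7a2 was at 109.5 and 113.0 CPM without LPS and at 96.0 and 129.6 CPM with LPS, so its groups overlapped. Without BV2 library 1 with LPS, 2 genes were called higher, where 8.32% of all genes were called.

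The response itself was compared between the cells by an interaction term over all 10 libraries. Of 82 genes, 5 responded more positively in primary microglia and 0 less, where 8.65% of all 11626 genes tested did so more positively and 3.54% less. They were Cox7a2 (difference of log2 fold changes 0.77 ± 0.22, adjusted p = 0.0199), Atp5g3 (0.64 ± 0.19, 0.0222), Uqcrc2 (0.63 ± 0.19, 0.0251), Atp5f1 (0.58 ± 0.19, 0.0430) and Atp5b (0.57 ± 0.17, 0.0210). The share of these genes (6.10%) was not above the background, and the rises of the other 17 genes were not shown to differ from BV2 cells. With the length offset, Atp5b and Uqcrc2 were called. The count was 0 without structural RNA genes, and 0 without BV2 library 1, primary library 1 or primary library 2, each of the groups without LPS. It was 1 without primary library 3 or BV2 library 2 without LPS, primary library 2 with LPS or BV2 library 1 with LPS, and 2 without primary library 3 with LPS. Of all genes, 8.29% to 11.4% were called in these fits, against 12.2% in the main test.

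Compared with BV2 cells, primary microglia had lower counts of nearly the whole chain when transcript length was left out of the fit. Without LPS, 69 of 82 genes were lower in primary microglia and 1 was higher, where 32.5% of all genes were lower and 41.5% higher. The median log2 fold change was -1.23, against 0.23 over all genes, and 47 genes were lower by at least 2-fold (22.6% of all genes were). With the length offset, described below, 33 genes were lower and 22 higher, with a median of -0.18. Uqcr10, a small subunit of complex III, was at 22.1, 29.4 and 34.1 CPM in primary microglia and at 155.9 and 155.0 CPM in BV2 cells. These ranges were far apart, and the log2 fold change was -2.44 ± 0.17 (adjusted p = 5.20e-13). Ndufb8 of complex I (-2.26 ± 0.16), the assembly factor Ndufaf2 (-2.20 ± 0.26) and Atp5f1 (-2.11 ± 0.13) were also among the genes with the lowest values, as were Atp5o (-2.07), Ndufaf5 (-2.04), Ndufa2 (-1.95), Uqcrc2 (-1.93) and Ndufa10 (-1.92). Ndufv3, an accessory subunit of the NADH-oxidising module, was the single gene higher in primary microglia, at 14.98, 15.9 and 19.0 CPM against 9.67 and 9.91 CPM (0.77 ± 0.25, adjusted p = 0.00812). Without BV2 library 1 it was no longer called.

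The 4 subunits of complex II did not move together between the cells. Sdha was at 110.9, 110.0 and 102.8 CPM in primary microglia and at 118.5 and 110.7 CPM in BV2 cells, overlapping ranges with a log2 fold change of -0.09 ± 0.13. Sdhb (-1.19 ± 0.16), Sdhc (-1.49 ± 0.14) and Sdhd (-1.26 ± 0.14) were all lower in primary microglia. Uqcrb (0.09 ± 0.22), alone in complex III, was not called. With LPS, 64 of 82 genes were lower in primary microglia and Uqcrb was higher (0.45 ± 0.20, adjusted p = 0.0463), where 30.7% of all genes were lower and 43.1% higher. The median was then -0.97, and the lowest values included Uqcr10 (-2.09), Ndufs8 (-2.02), Ndufaf2 (-2.02), Ndufb8 (-1.95), Atp5e (-1.92), Ndufb3 (-1.82), Cox4i1 (-1.78), Ndufa10 (-1.58) and Atp5f1 (-1.53). Uqcrb was no longer called without primary library 1, 2 or 3 without LPS, primary library 3 with LPS, BV2 library 1 or 2 without LPS, or BV2 library 1 with LPS. These comparisons share their libraries with the LPS comparisons.

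The counts between the cells differed with the handling of transcript length. Length slopes were -0.35 to -0.28 in BV2 libraries, opposite in sign to those of primary libraries. With the length offset, 33 genes were lower and 22 higher without LPS (median -0.18), and 29 lower and 19 higher with LPS (median -0.11). Over all genes with the offset, 71.1% were called without LPS, 31.0% as lower, and the median was 0.19. With LPS 72.4% of all genes were called, 29.3% as lower, and the median was 0.28. Without the offset, shorter and longer respiratory chain genes differed little from each other between the cells, with medians of -1.13 over 38 and -1.29 over 44. With the offset, the medians were 0.37 for the shorter and -0.50 for the longer genes. Of the genes called lower in primary microglia in the main test, 14 were called higher with the offset without LPS, and 7 with LPS. Cox6a1, Cox6b1 and Cox8a were among the 14, and Cox7b took the opposite sign without being called.

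**Figure D4:**
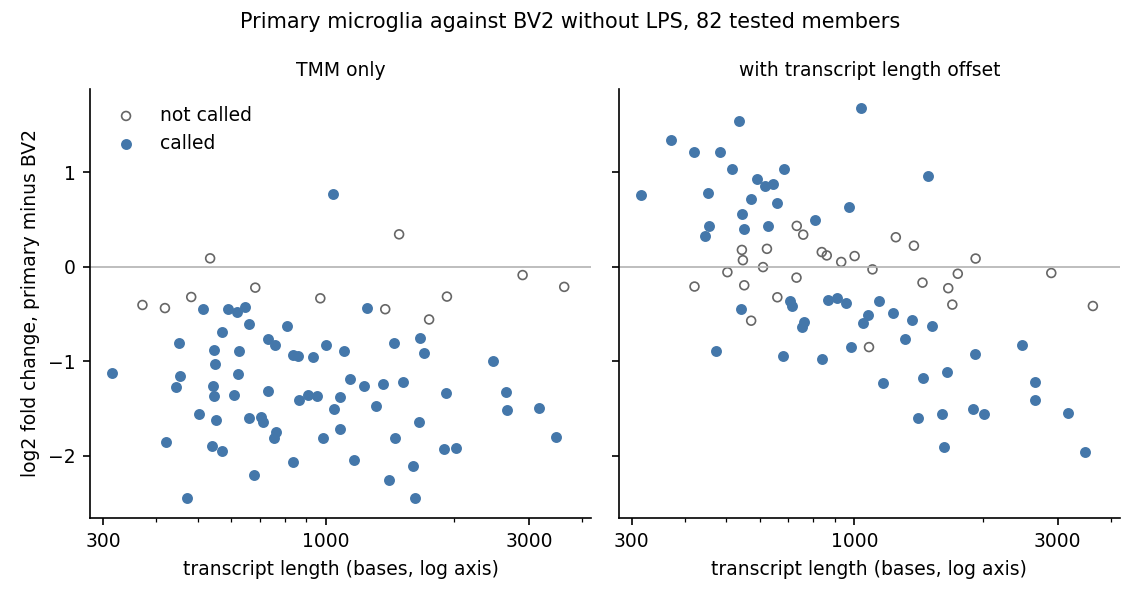
Log2 fold change of primary microglia against BV2 cells without LPS for 82 genes against transcript length (log axis), with TMM scaling only (left) and with a transcript length offset (right); filled points were called. The points on the left show no slope with length and nearly all lie below 0, while on the right short transcripts lie above 0 and long ones below.

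Levels between genes were compared as mean CPM per kb of transcript. In primary microglia without LPS the highest was Cox8a at 167.5 ± 5.40 CPM per kb (SD, n = 3), followed by Atp5b at 162.0 ± 8.55, and these did not differ beyond their spread. The highest of the other complexes were Uqcr11 at 88.02 ± 8.07 (complex III), Ndufa7 at 86.5 ± 12.5 (complex I accessory), Sdhb at 47.3 ± 6.79 (complex II) and Ndufv2 at 32.9 ± 3.97 (complex I core). The next genes of complexes III, II and I core, Uqcrh (83.2 ± 8.11), Sdhd (43.1 ± 3.93) and Ndufs7 (32.2 ± 8.02), lay within that spread. Among Ndufaf genes Ndufaf2 was highest at 7.43 ± 0.357. In BV2 cells without LPS, Atp5b was at 407.5 ± 12.1 CPM per kb (SD, n = 2), Cox8a at 342.1 ± 22.7, Uqcr10 at 329.4 ± 1.43, Ndufb9 at 174.4 ± 7.05 and Sdhb at 108.0 ± 7.90. The length slopes of these libraries were opposite, 0.31 to 0.39 in primary microglia and -0.33 to -0.28 in BV2 cells. The order of short against long genes is therefore uncertain, and a different order in the 2 cell types was not tested.

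Several genes around the chain, outside the rule on symbols, changed by more than 2-fold with LPS in primary microglia. AA467197 encodes a small paralog of NDUFA4 that is known to replace it in complex IV of inflamed cells. It had 1 count over the 3 primary libraries without LPS and 195 over the 3 with LPS, or 0.375, 0 and 0 CPM against 19.6, 17.9 and 25.2 CPM. The ratio of the means was 168, with a 95% counting interval of 29.9 to 6684 (adjusted p = 2.22e-09), and it was called in all 16 alternatives. In BV2 cells it had 0 counts without LPS and 1 with LPS. The difference of its log2 fold changes between the cells was 4.75. That difference was not called in the interaction test or in any of its 18 alternatives. Ndufa4 itself, in the same primary libraries, was at 38.6, 38.0 and 36.2 CPM without LPS and at 51.7, 50.1 and 50.2 CPM with LPS, and rose by 0.42 ± 0.14 (adjusted p = 0.0204).

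Cycs, the electron carrier between complexes III and IV, was at 21.0, 23.7 and 25.7 CPM without LPS and at 50.9, 54.9 and 55.3 CPM with LPS in primary microglia. It rose by 1.18 ± 0.15 on the log2 scale (adjusted p = 3.04e-06), and its response differed from that in BV2 cells (difference 0.91 ± 0.22, adjusted p = 0.00461). Cyc1, the haem subunit of complex III that reduces it, was not called (0.32). Gpd2, which feeds electrons from glycerol 3-phosphate into coenzyme Q, rose by 2.37 ± 0.13 (adjusted p = 2.51e-11). It was the 1 gene called among 6 tested for electron entry outside complexes I and II, where 39.2% of all genes were called. Its difference from BV2 cells was 1.87 ± 0.23 (adjusted p = 7.13e-07).

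Of 33 tested assembly factors of complexes II to V, 9 rose and 3 fell in primary microglia, near the background of 21.4% and 17.8%. Coa5, a complex IV assembly protein, rose by 1.49 ± 0.13 (adjusted p = 2.29e-08), the copper chaperone Cox17 by 0.95 ± 0.16 (1.25e-04) and the haem synthesis enzyme Cox10 by 0.85 ± 0.24 (0.00751). Slirp, which binds mitochondrial mRNAs, rose by 1.05 ± 0.20 (adjusted p = 3.49e-04), while its partner Lrpprc fell by 1.31 ± 0.40 (0.0169). Lrpprc was at 9.37, 10.6 and 7.04 CPM without LPS and at 7.05, 1.59 and 2.84 CPM with LPS. Its groups overlapped, and library 1 with LPS was within the range without LPS. Cox18, Higd1a, Cox11, Sco1 and Sdhaf2 also rose, by 0.50 to 1.67, and Uqcc3 and Higd2a fell by 0.71 and 0.50. In BV2 cells 1 of 36 tested assembly factors was called, where 5.2% of all genes were. Of 18 TCA cycle and pyruvate dehydrogenase genes, 3 rose (Pdhb, Dld and Pdhx, by 0.51 to 0.57) and 2 fell (Idh2 by 1.32 and Ogdh by 0.38), neither share above that background.

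Among 16 tested regulators of mitochondrial biogenesis, 3 rose and 2 fell in primary microglia, again no more than among all genes (21.4% and 17.8%). Esrra, a nuclear receptor that acts on respiratory chain promoters, was at 17.98, 21.7 and 22.2 CPM without LPS and at 44.3, 58.0 and 46.5 CPM with LPS. It rose by 1.26 ± 0.17 (adjusted p = 5.59e-06), more than in BV2 cells (difference 0.93 ± 0.25, adjusted p = 0.0125). Gabpb1 rose by 0.89 ± 0.19 (adjusted p = 0.00109) and Gabpb2 fell by 0.80 ± 0.19 (0.00221). Nrf1 (0.09), Gabpa (0.11) and Tfam (0.72, adjusted p = 0.0668) were not called. Tfam was called higher in 6 of 16 alternative analyses.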

How the data were processed

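RNA was measured in 10 libraries of 4 groups, named by the sample titles. Per the labels' protocols, ribosomal RNA was removed and a directional kit was used. CASAVA 1.8.2, Trimmomatic 0.33, STAR 2.5.1, DESeq2 and the mm10 build are named in the submitters' processing notes. The deposited files hold raw read counts per gene symbol, unstranded and for each strand, and the reverse-strand column was used. The sources used here do not name the annotation behind them. Entries that name no gene held 70.4% to 79.5% of reads and were left out. A count of 0 allows up to 3 counts, or 0.814 to 1.09 CPM, which covers counting error only.

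Counts were fitted with edgeR 4.0.16 (quasi-likelihood, TMM, minimum count 10 and minimum total 15, Benjamini-Hochberg adjustment over all genes). The LPS responses were fitted within each cell type, and the other comparisons over all libraries. The script was tested on simulated data. CPM uses TMM-scaled library sizes. Transcript lengths came from GENCODE transcripts matched through RefSeq, and promoters from RefSeq on GRCm38.p6. Read sharing was judged from 50-base windows of GENCODE transcripts. The members and lists were chosen with earlier results of these data known. Genes were named from the 10 largest called rises and falls with at least 5 CPM, the isoform sets, complex II, the highest and lowest gene per kb of each complex, and called genes of the pathway lists. Not every gene the rule allows is printed, and an item is not reported here. Same-numbered primary libraries deviated with correlations of 0.181, -0.077 and 0.194, so numbers were not taken to pair samples. No replicate pair was within sampling noise (the lowest chi-square per degree of freedom was 1.57). The value was 68.8 and 74.4 for primary library 1 with LPS against libraries 2 and 3 with LPS. Between libraries 2 and 3 with LPS it was 2.80, and the highest of the remaining pairs was at 9.74. Alternatives were DESeq2 1.42.0, its size factors, no filter, the unstranded column, a replicate block, a length offset, removal of abundant RNAs, 1 fit of all libraries and leaving out each library; removal of Rn45s, Lars2 and Mir6236 and keeping only primary library 1 with LPS were chosen after seeing the data.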

Additional observations from a re-analysis of the deposited data

Results flagged for a closer look

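A closer look is warranted where the LPS response in primary microglia differed from that in BV2 cells by the interaction test (edgeR). The difference of log2 fold changes was 0.77 for Cox7a2, 0.64 for Atp5g3, 0.63 for Uqcrc2, 0.58 for Atp5f1 and 0.57 for Atp5b. Outside the respiratory chain genes it was 0.91 for Cycs and 0.93 for Esrra. All 7 were more positive in primary microglia, with adjusted p-values of 0.00461 to 0.0430. Cycs stayed called in all 18 alternative analyses. Esrra lost the call in 4 of 18 (DESeq2 and without BV2 library 1 or primary library 1 without LPS, or BV2 library 2 with LPS), and the 5 subunits each lost it in 8 to 13 of 18. Groups of 2 or 3 libraries were not tested for outlying samples.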

How the results depend on the processing

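Alternatives to the counts of called genes gave 166 values, of which 125 stayed within 1.5 times the main count. For the LPS response in primary microglia, the rises numbered 14 with DESeq2, where 25.6% of all genes were called, 9.64% as lower. With the transcript length offset 6 rises and 8 falls were left, where 40.5% of all genes were called, 17.6% as lower. With only primary library 1 kept with LPS, the median log2 fold change was 0.07. For the difference of responses the count was 3 with DESeq2, 2 with the offset and 0 without structural RNA genes. Between the cells without LPS, the genes higher in primary microglia numbered 2 with DESeq2 or no filter and 22 with the offset, and those lower 33 with the offset. With LPS, 2 were higher with no filter, 19 with the offset and 0 with the unstranded column, without structural RNA genes or without Rn45s, Lars2 and Mir6236, and 29 were lower with the offset. Over all genes with the offset, 31.0% were lower without LPS and 29.3% with LPS. Leaving out each library gave 12 to 34 rises and 1 to 3 falls in primary microglia, 0 to 2 rises in BV2 cells and 0 to 7 for the difference. It gave 0 to 1 higher and 64 to 70 lower genes between the cells without LPS, and 0 to 1 higher and 61 to 65 lower with LPS. The share of all genes called moved as well. It was 30.4% to 48.3% in primary microglia, 3.69% to 8.32% in BV2 cells and 8.29% to 16.6% for the difference. Between the cells it was 64.9% to 77.0% without LPS and 67.0% to 73.4% with LPS.

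Among named genes called in the main test or the alternative, and for the median in primary microglia, the length offset was the alternative that turned directions. The median response in primary microglia became -0.031 and that of Cox8a -0.030. Primary microglia against BV2 cells without LPS became 0.71 for Cox6a1, 0.85 for Cox6b1, 0.11 for Cox7b and 0.40 for Cox8a. With LPS it became 1.05 for Cox6a1, 1.07 for Cox6b1, 0.24 for Cox7a2, 0.24 for Cox7b, 0.62 for Cox8a, 0.23 for Ndufa4 and 0.019 for Atp5g3. It gave the opposite call to 14 genes without LPS and to 7 with LPS. The cause was not tested. With the replicate block, 24 genes rose and 1 fell in primary microglia, 7 differed between the responses, and Uqcrb was no longer called between the cells with LPS, which left 0 higher. Of all genes, the block called 42.0% in primary microglia and 14.5% for the difference of responses. For single genes and medians, 2346 of 2520 values kept their side of the threshold or stayed within the spread, though uncalled values near 0 could change sign. Depth of 2.75 to 3.68 M gene counts limits genes near 5 CPM such as the Ndufaf series.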
